A study of Mus musculus with 2 samples.

Results

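The striated muscle miRNAs were read in microRNA libraries of mouse embryonic facial prominence, the tissue of the forming face and jaws, at embryonic day 15.5. The members were fixed by gene symbol as 9 miRNA genes, namely Mir206 and Mir133b, the Mir1a-1 with Mir133a-2 and Mir1a-2 with Mir133a-1 clusters, and Mir208a, Mir208b and Mir499 of the myosin introns. Of these 9, 8 had a row among the 1973 counted miRNA genes, and Mir1a-2 was not analysed here because its identifier in the later annotation is not among the counted genes. The study has 1 group of 2 libraries from healthy B6NCrl embryos of mixed sex, where replicate 1 pools tissue of 78 embryos and replicate 2 that of 62, with no treatment or genetic change in the labels. Each library is therefore an average over many embryos, and the spread between the libraries covers pooling, preparation and sequencing together. The reads assigned to miRNA genes numbered 2978463 in replicate 1 and 6408008 in replicate 2.

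Skeletal and cardiac muscle cells carry a small set of miRNAs, often called myomiRs, which are switched on as myoblasts differentiate under MyoD, myogenin, MEF2 and SRF. The miR-1 and miR-206 miRNAs share a seed and promote muscle differentiation, miR-133 represses SRF and other muscle regulators, and miR-208a, miR-208b and miR-499 are made from introns of the myosin heavy chain genes Myh6, Myh7 and Myh7b and help to set the slow myosin programme. In the mouse miR-206 is a skeletal muscle miRNA, miR-1 and miR-133a serve both heart and skeletal muscle, and miR-208a is a heart miRNA. The embryonic face holds the forming muscles of mastication, expression and the tongue, but no heart.

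The mature arms of the members decide which reads can be told apart, so those of the genes with the most reads are given here 5′ to 3′ as listed by RefSeq on GRCm38.p6, with the seed (bases 2 to 8) in capitals. The 11 listed arms belong to 6 members.
miR-206-3p: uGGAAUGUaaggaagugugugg
miR-133b-3p: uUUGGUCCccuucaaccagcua
miR-208a-3p: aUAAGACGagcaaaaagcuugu
miR-208b-3p: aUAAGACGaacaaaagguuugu
miR-499-5p: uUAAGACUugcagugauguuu

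Of the 5 arms shown, 1 pair shares a seed. miR-208a-3p and miR-208b-3p had the same seed, and 19 of their 22 bases were identical. They differed by G10A, A16G and C18U, written as the base of miR-208a-3p, the position from its 5′ end and the base of miR-208b-3p. miR-499-5p shared bases 2 to 7 with both and departed in the seed at its last base, G8U from either miR-208 arm to miR-499-5p. Over all 21 positions compared, seed included, it had 12 equal to miR-208a-3p and 10 equal to miR-208b-3p. The seeds of miR-206-3p and miR-133b-3p differ from these and from each other. Of the arms compared, which did not include miR-1a-3p, miR-6349 and miR-6382 had the seed of miR-206-3p, and Mir6349 and Mir6382 had 0 reads in both libraries.

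Copies set a limit on what the counts can hold, since reads placed at several positions were not given to a gene. Among the 2202 miRNA hairpins of GENCODE M21, neither Mir206 nor any of the 3 myosin intron genes had 20 or more bases in a row in common with any other. The hairpin of Mir206 is shown for that reason, with the miR-206-5p and miR-206-3p arms in capitals.
Mir206: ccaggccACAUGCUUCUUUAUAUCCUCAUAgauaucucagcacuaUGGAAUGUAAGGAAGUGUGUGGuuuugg
Its longest stretch in common with the hairpins of Mir1a-1 and Mir1a-2 was 13 bases, shorter than a mature miRNA. Mir1a-1 and Mir1a-2 shared 28 bases, more than a whole mature miRNA, and Mir133a-1 and Mir133a-2 shared 31. The first 21 of the 22 bases of miR-133b-3p lay in both Mir133a-1 and Mir133a-2, so a read of this arm that lacks the last base is held by all 3 hairpins. The other arm of Mir133b and the 5p arm of Mir1a-1 were in no other hairpin over 15 bases from the 5′ end. The second of these is given with miR-206-5p, from which it differs by G5A, C17G and U19C, written as the base of miR-206-5p, the position and the base of miR-1a-1-5p, with the same seed marking as above.
miR-206-5p: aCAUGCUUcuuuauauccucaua
miR-1a-1-5p: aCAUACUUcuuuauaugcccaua

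**Figure D1:**
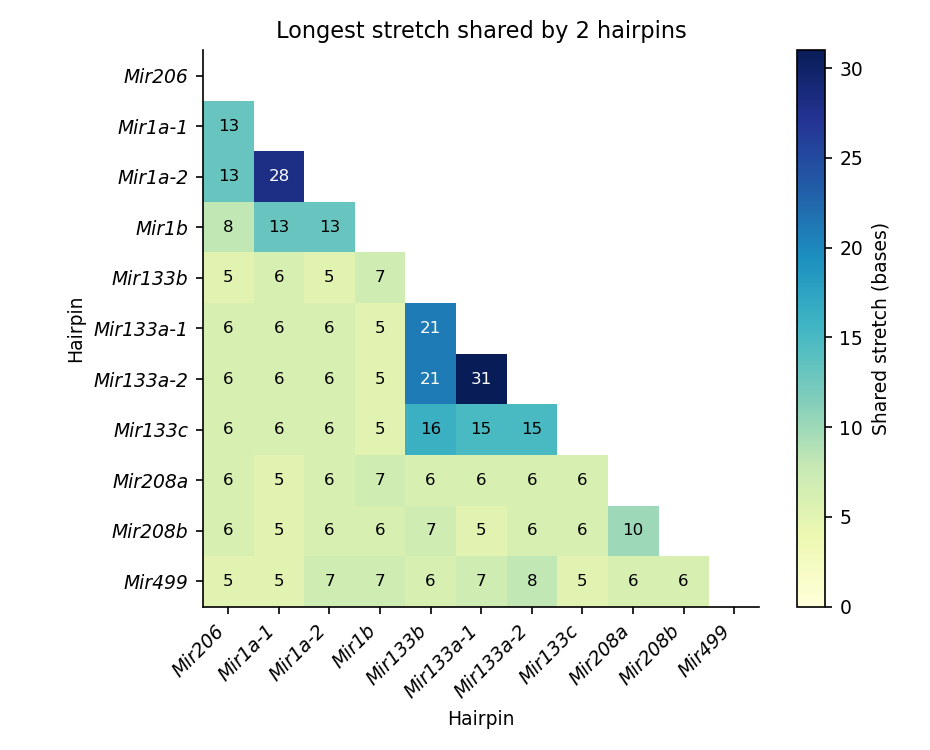
Longest run of identical bases (colour scale and numbers, in bases) shared by each pair of hairpins of the 9 members and of Mir1b and Mir133c. The dark cells are the pairs of Mir1a-1 with Mir1a-2 (28), of Mir133a-1 with Mir133a-2 (31) and of Mir133b with both Mir133a genes (21), and every pair with Mir206, Mir208a, Mir208b or Mir499 is at 13 or below.

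Mir206, a skeletal muscle miRNA, carried nearly all of the member reads, with 89.7 reads for each read of Mir208b, the next member, in replicate 1 and 71.7 in replicate 2. In bulk tissue a level joins the number of muscle cells and the miRNA in each, and these cannot be told apart. It lies on the plus strand of chromosome 1, 20679010 to 20679082 (GRCm38), over an annotated exon of the long noncoding gene Gm28653. Its reads numbered 23495 in replicate 1 and 37647 in replicate 2, and every one lay on the strand of the gene. As CPM, the library-scaled count with TMM factors that is the unit of all levels here, this was 7860.8 in replicate 1 and 5895.5 in replicate 2, a mean of 6878.2 ± 1389.7 CPM (SD, n = 2). Replicate 1 was the higher of the libraries. It held 0.789% of all counts in replicate 1 (95% Clopper-Pearson interval 0.779 to 0.799) and 0.588% in replicate 2 (0.582 to 0.593), and ranked 32 of 1973 genes by mean level. These intervals cover counting error only, because reads without molecular identifiers are not independent molecules.

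Mir133b, the partner of Mir206, was far lower although the pair lies on one stretch of chromosome 1. Mir133b occupies 20682769 to 20682887, 3686 bases beyond Mir206, over another exon of Gm28653. It had 239 reads in replicate 1 and 454 in replicate 2, or 79.96 and 71.1 CPM, a mean of 75.5 ± 6.27 (SD, n = 2). There were 98.3 reads of Mir206 for each read of Mir133b in replicate 1 and 82.9 in replicate 2. The level of Mir133b is uncertain and the ratio holds only for reads placed at 1 position, since its main arm is told from miR-133a by the last base alone.

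The myosin intron genes followed the order Mir208b, Mir499, Mir208a. Mir208b, in an intron of Myh7, the slow myosin of heart and skeletal muscle, lies at chromosome 14, 54975700 to 54975776, on the minus strand. It had 262 reads in replicate 1 and 525 in replicate 2, or 87.66 and 82.22 CPM (mean 84.9 ± 3.85, SD, n = 2), so the libraries were close. Mir499, in an intron of Myh7b, a myosin gene of slow muscle and heart, at chromosome 2, 155622880 to 155622958, on the plus strand, had 176 and 214 reads, or 58.88 and 33.51 CPM (mean 46.2 ± 17.9, SD, n = 2). Relative to its mean it had the widest spread of the 4 members tested below, an SD of 38.8% of the mean, with replicate 1 above replicate 2.

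Mir208a, in an intron of Myh6, a heart myosin, was near the limit of detection. It lies at chromosome 14, 54949060 to 54949142, with 26557 bases between it and Mir208b, and had 9 reads in replicate 1 and 29 in replicate 2, or 3.01 and 4.54 CPM (mean 3.78 ± 1.08, SD, n = 2). Mir208b exceeded Mir208a in reads by 29.1-fold in replicate 1 (95% exact interval 15.1 to 64.4) and by 18.1-fold in replicate 2 (12.5 to 27.3). The intervals overlap, and both libraries place the Myh7 intron gene above the Myh6 intron gene.

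The Mir1a and Mir133a genes had next to no reads placed at 1 position. Mir1a-1, at chromosome 2, 180389048 to 180389124, outside other annotated genes, had 1 read in replicate 1 and 3 in replicate 2. Mir133a-2, 9254 bases away at 180398379 to 180398482, and Mir133a-1, in an intron of the noncoding gene Mir133a-1hg at chromosome 18, 10782909 to 10782976, had 0 reads in both libraries. Taking 3 reads as what a count of 0 allows, their shares could be up to 0.000101% of counts in replicate 1 and 4.68e-05% in replicate 2, which is 1.00 and 0.470 CPM. The upper bounds of the 95% Clopper-Pearson intervals are slightly higher, at 0.000124% and 5.76e-05%. These limits apply to reads placed at 1 position. The deposited files set aside 1789456 reads of replicate 1 and 4186211 of replicate 2 as placed at several positions, equal to 60.1% and 65.3% of the assigned reads, without saying which genes they belong to. The levels of miR-1a and miR-133a therefore cannot be read from these counts, and how many of the set-aside reads are theirs was not tested.

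Mir1b covers the locus of Mir1a-2 on the opposite strand, at chromosome 18, 10785446 to 10785567. It had 11 reads in replicate 1, of which 2 lay on the strand of Mir1a-2, and 15 in replicate 2, of which 5 did. Whether these few reads came from Mir1a-2 was not tested.

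**Figure D2:**
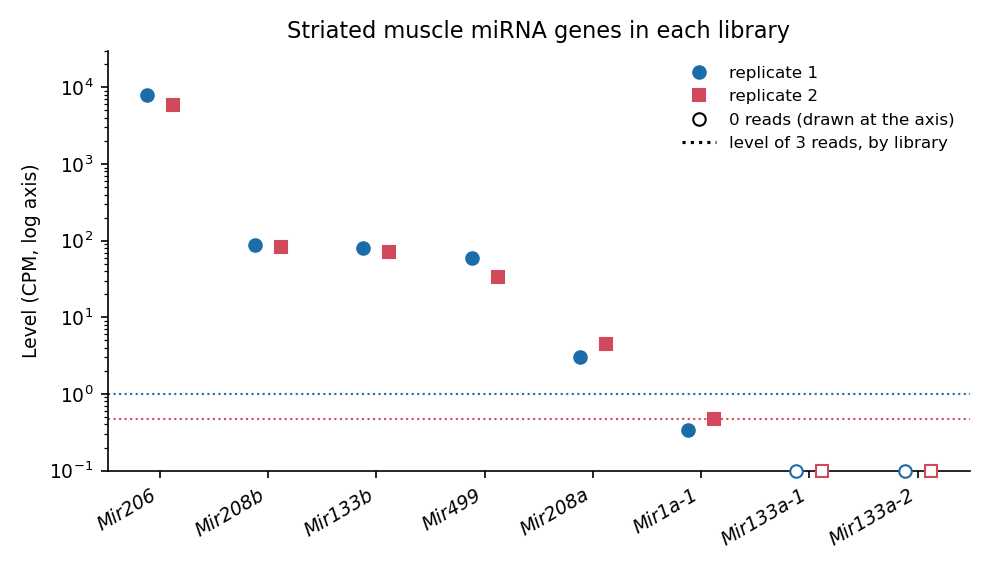
Level of each of the 8 counted members (CPM, log axis) in replicate 1 (circles) and replicate 2 (squares), with the level of 3 reads in each library as a dotted line and genes without reads as open symbols at the axis. Mir206 stands at 7860.8 and 5895.5 CPM, Mir208b, Mir133b and Mir499 lie between 33.51 and 87.66 CPM, and Mir1a-1, Mir133a-1 and Mir133a-2 are at or below the level of 3 reads.

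By mean level the members ranked Mir206, Mir208b, Mir133b, Mir499, Mir208a and Mir1a-1, followed by the Mir133a genes at 0. A read of a mature miRNA covers the whole molecule, so reads per gene were compared without division by length. The neighbours Mir208b and Mir133b differed by little, with 1.10 reads of Mir208b per read of Mir133b in replicate 1 (95% exact interval 0.916 to 1.31) and 1.16 in replicate 2 (1.02 to 1.31). An exact binomial test inside each library, unadjusted, gave p = 0.326 in replicate 1 and p = 0.0252 in replicate 2, so this order was not resolved in replicate 1. Mir133b exceeded Mir499 by 1.36-fold (1.11 to 1.66, unadjusted exact binomial p = 0.0023) and 2.12-fold (1.80 to 2.51, p = 8.81e-21). These orders rest on reads placed at 1 position and on counting error only. They are orders of reads, and whether different miRNAs gave reads with equal yield was not tested.

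Within the 24182 member reads of replicate 1 and the 38872 of replicate 2, Mir206 made up 97.2% (96.9 to 97.4) and 96.8% (96.7 to 97.0), a mean of 97.0% ± 0.219 (SD, n = 2). This share is over reads placed at 1 position and leaves out Mir1a-2 and whatever miR-1a and miR-133a reads were set aside. The remaining 687 and 1225 reads were divided mainly among Mir208b, Mir133b and Mir499. Mir208b took 1.08% (0.957 to 1.22) of member reads in replicate 1 and 1.35% (1.24 to 1.47) in replicate 2, while Mir499 took 0.728% (0.625 to 0.843) and 0.550% (0.479 to 0.629). The share of Mir208b was thus higher in replicate 2 and that of Mir499 lower. A larger share is not a higher level here, since Mir206 makes up most of the total and was lower in replicate 2. In CPM Mir208b was 87.66 in replicate 1 and 82.22 in replicate 2.

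**Figure D3:**
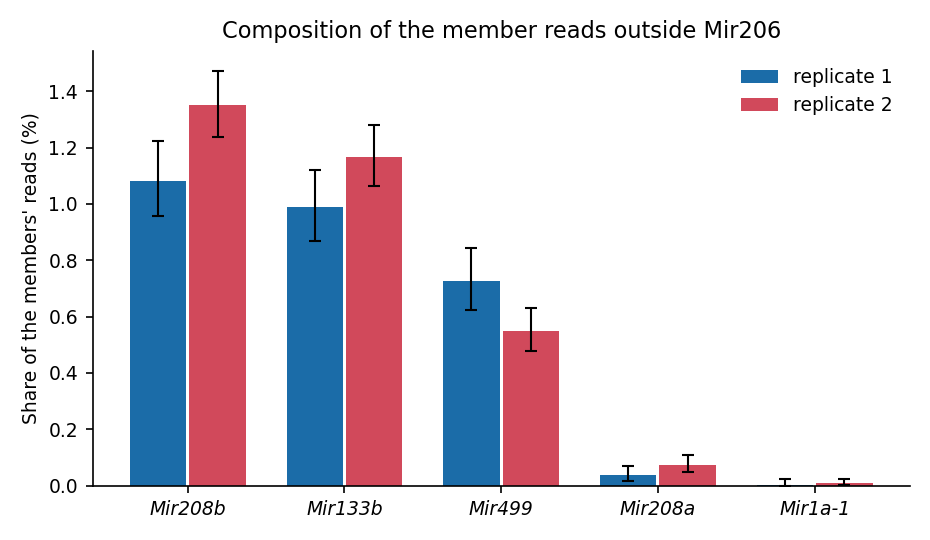
Share of all member reads (%) taken by the 5 members with reads other than Mir206, in replicate 1 and replicate 2, with 95% Clopper-Pearson intervals as error bars. Mir208b (1.08% and 1.35%) and Mir133b (0.988% and 1.17%) took larger shares in replicate 2, and Mir499 (0.728% and 0.550%) took a smaller one. In CPM neither Mir208b nor Mir133b was higher in replicate 2.

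The libraries were compared with each other to see how evenly the muscle miRNAs were sampled by the pools. Of the 8 counted members 4 had at least 10 reads in each library and were tested, namely Mir206, Mir133b, Mir208b and Mir499. Mir206 and Mir499 were higher in replicate 1, and Mir133b and Mir208b did not pass. Over all 333 tested genes the same test called 53.5%, with 27.6% higher in replicate 1 and 25.8% in replicate 2, so 2 of 4 members called is close to that share. The test was a two-sided exact binomial test of reads against the ratio of the scaled library sizes, its p adjusted by Benjamini-Hochberg across those 333 genes and called at 0.05. It compares these libraries and covers counting error only, since 1 library against 1 leaves nothing to estimate the variation between pools.

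Mir206 had a log2 ratio of replicate 2 over replicate 1 of −0.42 (95% interval −0.44 to −0.39, exact binomial adjusted p = 1.66e-254), or 1.33-fold. Mir499 had the larger difference, a log2 ratio of −0.81 (−1.11 to −0.52, exact binomial adjusted p = 1.46e-07), or 1.76-fold. Of the 4 tested members Mir499 was the 1 over 1.5-fold, where 10.8% of all tested genes were over 1.5-fold and 3.30% were so toward replicate 1. Of the tested genes 5 had a lower log2 ratio than Mir499 and 38 had a lower one than Mir206. Mir133b had a log2 ratio of −0.17 (−0.40 to 0.06, exact binomial adjusted p = 0.225) and Mir208b one of −0.09 (−0.31 to 0.13, exact binomial adjusted p = 0.515). All 4 log2 ratios were below 0, with a median of −0.29, where 53.5% of tested genes were below 0 and their median was −0.02. Mir208a was not tested, and its log2 ratio was 0.59 (1.51-fold) with an interval of −0.52 to 1.86.

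**Figure D4:**
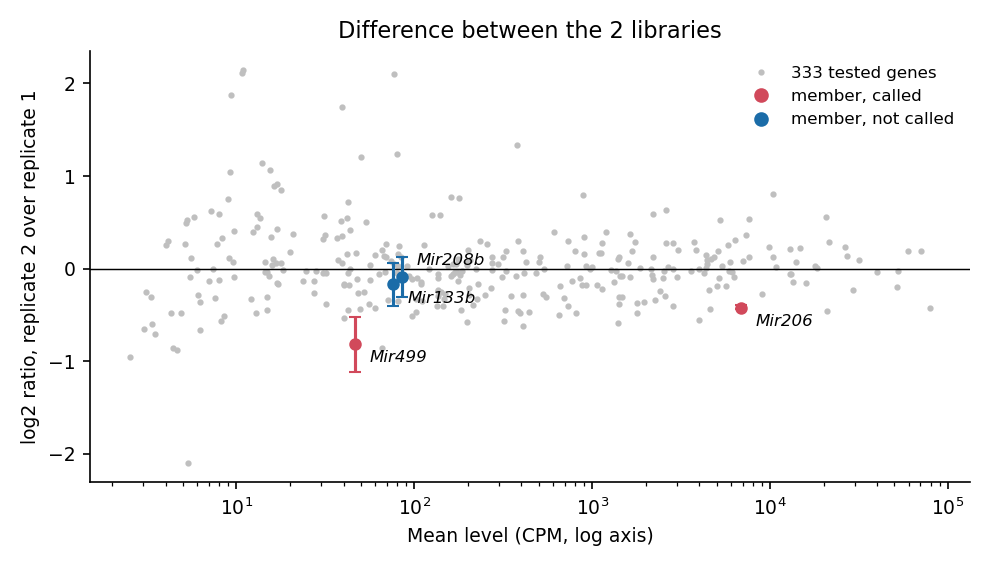
Log2 ratio of replicate 2 over replicate 1 against mean level (CPM, log axis) for the 333 tested genes (grey) and the 4 tested members (coloured, with 95% exact intervals). Mir499 (−0.81) and Mir206 (−0.42) lie below 0 with intervals that exclude it, and the intervals of Mir133b (−0.17) and Mir208b (−0.09) cross it.

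Ratios taken inside a library do not depend on how the libraries are scaled, so each tested gene was also set against Mir206. The reads of Mir206 per read of Mir208b went from 89.7 in replicate 1 to 71.7 in replicate 2, for Mir208b over Mir206 a log2 difference of 0.32 (0.11 to 0.54, Fisher's exact test adjusted over 332 genes, p = 0.00501). For Mir499 there were 133.5 and 175.9 reads of Mir206 per read, a log2 difference of −0.40 (−0.69 to −0.11, Fisher's exact test adjusted p = 0.0117). For Mir133b, with the 98.3 and 82.9 given above, it was a log2 difference of 0.25 (0.02 to 0.47, Fisher's exact test adjusted p = 0.048). Relative to Mir206, Mir208b and Mir133b were thus higher in replicate 2 and Mir499 was lower. Of all 332 genes 70.8% passed this test and 67.8% passed it upward, so the upward calls of Mir208b and Mir133b are common among genes. Downward calls, such as that of Mir499, were the rarer kind, which the choice of reference brings with it. Mir206 itself had a log2 ratio of −0.42, and 38 of the 333 tested genes had a lower one.

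The labelled tissue was checked with miRNAs known from other cell types. The members summed to 8090.7 and 6087.4 CPM, a mean of 7089.0 ± 1416.5 (SD, n = 2). The 7 epithelial genes summed to 152003.5 and 128519.5 CPM, the 2 cartilage genes to 15362.6 and 14409.9, and the mesenchyme list to 18084.7 and 16571.1. These 3 sums were thus also higher in replicate 1, and their part in the muscle difference was not tested. Mir203 weighed most in the epithelial sum, with a mean of 79020.1 CPM out of 140261.5 CPM and a log2 ratio of −0.43. Both cartilage genes were called higher in replicate 1. Of the 7 epithelial genes 4 were called higher in replicate 2 and 3 in replicate 1. For the 4 mesenchyme genes these counts were 2 and 1. Over all tested genes 53.5% were called, with 27.6% higher in replicate 1 and 25.8% in replicate 2. Mir214, which is also in the related muscle list, gave 50369 of the 54053 mesenchyme reads of replicate 1 and 96380 of the 105818 of replicate 2. The smooth muscle sum (17875.9 and 18231.1 CPM) and the endothelial gene Mir126a (24156.2 and 28413.9 CPM) were higher in replicate 2, as were the erythroid sum (196.4 and 213.8 CPM) and the counted leukocyte gene (488.8 and 532.0 CPM). The genes of the smooth muscle and erythroid lists were split. Mir145a (log2 ratio −0.21) was called higher in replicate 1 and Mir143 (0.03) in replicate 2. Mir144 (−0.86) was called higher in replicate 1 and Mir451a (0.58) in replicate 2. The liver miRNA Mir122 had 91 reads in replicate 1 and 447 in replicate 2, a log2 ratio of 1.20. Mir206 stood at 0.597 reads per read of Mir140, the cartilage miRNA, in replicate 1 (95% exact interval 0.587 to 0.606) and at 0.464 in replicate 2 (0.458 to 0.470). Of the 5 counted neural genes, 4 were at 3 reads or fewer in each library and the sum of all 5 was 3.01 and 5.64 CPM. The neural list holds only numbered copies of Mir9 and Mir124a, and reads placed at several positions were not counted. Their sum therefore does not show how much neural miRNA the tissue held.

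Among 20 related genes, which have described roles in myoblasts or satellite cells, lie in the Ank1 intron or resemble members, 18 were counted and 16 were tested. Replicate 1 was the higher for 5 of the 16 and replicate 2 for 3, the other 8 not passing, with a median log2 ratio of −0.14 beside −0.02 over all tested genes. The 8 called of 16 are close to the share of 53.5% over all tested genes, where 27.6% were higher in replicate 1 and 25.8% in replicate 2. Mir486, in an intron of Ank1 and known from muscle and red cells, had 86 and 167 reads, or 28.8 and 26.2 CPM, and was not called (log2 ratio −0.14, −0.52 to 0.25). Mir31, which targets Myf5 in muscle stem cells and is also an epithelial miRNA, had 758.8 and 538.1 CPM and was higher in replicate 1 (log2 ratio −0.50, exact binomial adjusted p = 3.25e-35). Mir27b, which represses Pax3 in muscle progenitors, had 4723.2 and 3220.3 CPM and was higher in replicate 1 as well (log2 ratio −0.55, exact binomial adjusted p = 6.67e-260). The other 3 called that way were Mir128-1, Mir128-2 and Mir214, with log2 ratios of −0.58, −0.32 and −0.16.

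The 3 related genes higher in replicate 2 were Mir181a-1, Mir195a and Mir322. Mir181a-1, which acts on Hox-A11 in differentiating myoblasts, had 1564.8 and 1914.1 CPM and a log2 ratio of 0.29 (exact binomial adjusted p = 8.57e-32). Mir322, which with Mir503 slows the cell cycle of differentiating myoblasts, had 30534.5 and 32483.6 CPM, a log2 ratio of 0.09 (exact binomial adjusted p = 3.74e-54). Mir195a, of the miR-15 family, had 658.4 and 810.4 CPM and a log2 ratio of 0.30 (exact binomial adjusted p = 7.89e-15). Mir503 had 917.4 and 936.8 CPM and was not called, and Mir675, made from H19, had 66.25 and 72.0 CPM and was not called. Mir489, a miRNA of quiescent satellite cells, had 2 reads in replicate 1 and 0 in replicate 2. Mir133c had 0 reads in both libraries. Most of these genes are also active outside muscle, so their levels do not measure muscle in this tissue. The Mir181a, Mir128 and Mir26a genes are numbered copies, and any reads placed at more than 1 copy were not counted. Their counts hold only reads placed at 1 position, and what their copies share was not tested.

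The 3 genes closest to Mir206 over the 2 libraries, by Euclidean distance in log2 CPM, were Mir93 (distance 0.29), Gm25927 (0.35) and Mir98 (0.36). Their levels were 6448.9 and 6068.1 CPM for Mir93, 6169.2 and 6014.6 for Gm25927, and 6888.9 and 7283.6 for Mir98. They resembled Mir206 in level, and their log2 ratios of −0.09, −0.04 and 0.08 were all nearer to 0 than its −0.42. With 2 libraries this likeness is a description only.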

How the data were processed

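Small RNA of 2 pools of embryonic facial prominence was sequenced, and the authors made raw counts for 1973 miRNA genes on mm10 (per the labels) with GENCODE M4 (per the file list that was deposited). Columns give the counts for both strands together and for each separately. Neither aligner nor counter is given in the sources used here. Counts on either strand were used. Of the total reads, 51.0% and 45.5% were assigned to genes in replicates 1 and 2; lines that name no gene were left out of library sizes. Symbols, positions and hairpins came from GENCODE M21 (the same build), which named 1894 genes, and mature sequences from RefSeq (GRCm38.p6).

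TMM factors were computed in edgeR 4.0.16 (R 4.3.3) on genes with at least 10 reads in each library. edgeR's quasi-likelihood test could not be fitted without residual degrees of freedom, so exact binomial tests were used in scipy 1.17.1 (Python 3.11.15). Fisher's exact tests against Mir206 were adjusted over all tested genes rather than over the members. The binomial test was checked on simulated data. Named genes are all members, the related list, counted genes overlapping or within 10 kb of a member, and the 3 genes nearest to Mir206 in log2 CPM. Genes sharing a member's seed, and Mir140 as a reference, were added after their values were seen. The members and lists were chosen with earlier results of these data known. Alternatives were total counts, size factors from DESeq2 1.42.0, other filters, gene-strand reads, summed copies, totals without the most abundant gene, and each library alone.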

Additional observations from a re-analysis of the deposited data

Results flagged for a closer look

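Reads on the strand opposite to the gene, which no comparison used on their own, exceeded 3 in a library for Mir1b and Mir486 and were 0 for all counted members. Mir1b had 5 such reads in replicate 2 and 2 in replicate 1. Mir486 had 9 in replicate 1 and 24 in replicate 2, where GENCODE M21 annotates Mir3107. No sample group was large enough to look for outlying libraries.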

How the results depend on the processing

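Under the other scalings, filters and strand choice the summed level, the share of Mir206, the 2 called members and all 4 log2 ratios kept their direction and their side of the threshold. Part of this was fixed in advance. Scaling cannot change the share of Mir206, nor can strand choice, since no member had reads on the opposite strand. Filters act on the adjusted p and not on the log2 ratios. Summing copies changed nothing, because the Mir133a genes had no reads and Mir1a-2 was not counted. The log2 ratio of Mir206 ranged from −0.43 to −0.39 (exact binomial adjusted p 8.75e-267 to 1.82e-221) and that of Mir499 from −0.82 to −0.78 (1.04e-07 to 4.26e-07) over 7 alternatives each. That of Mir133b ranged from −0.18 to −0.14 (0.195 to 0.368) and that of Mir208b from −0.10 to −0.06 (0.469 to 0.696). With totals that omit Mir203, the gene with the most reads, Mir208b stood at 92.2 CPM and Mir133b at 82.0 CPM, above their means by more than the SD, as smaller totals give. From each library alone the summed level was 6087.4 or 8090.7 CPM and the share of Mir206 96.85% or 97.16%. The share of all genes called was 26.3% of 708 without a filter and 67.2% of 247 with 100 reads in each library. Leaving out a library ends the comparison between libraries, so no such ratio was computed. No paired analysis was possible because there is 1 group. Among the members, the depth limits Mir208a and the genes with 3 reads or fewer, and copies limit Mir133b and the Mir1a and Mir133a genes. Copies of the members were looked for as exact runs among miRNA hairpins only. The rest of the genome was not searched, for Mir206 and the myosin intron genes as well. Copies may also limit the related and neural genes that are numbered copies, whose sequences were not compared.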
